A study of Mus musculus with 50 samples.

Results

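Nuclear RNA of mouse motor neurons grown from embryonic stem cells was compared between day 7 in vitro (DIV7, 2 libraries) and day 28 in vitro (DIV28, 3 libraries). These 5 libraries were chosen by their labelled day and by the absence of any drug, out of 28 RNA libraries and 50 libraries in all in the series. The stem cell line came from mice of the genotype Chat-Cre;SUN1-GFP-3xMYC on a C57BL/6 background, in which Cre made from the choline acetyltransferase locus switches on a tagged nuclear envelope protein, and all 5 libraries carry both alleles. At DIV0 the embryoid bodies were dissociated and the neurons were plated on astrocyte-enriched glia from the cortex of mice at postnatal day 2, with neurotrophic factors and with no muscle or spinal cord partner. Tagged nuclei were then captured on beads. Plates of a genotype were mixed together within an experiment, and nothing in the labels says whether replicates came from separate differentiations, so that the p-values below measure only the spread between these libraries. Beside them, 2 libraries from DIV0, 3 from DIV28 neurons kept in 1 µM tetrodotoxin (TTX, a sodium channel blocker) for the whole culture, and motor neuron nuclei from spinal cords of Chat-Cre;SUN1-GFP mice at P4 (3 libraries) and P21 (3 libraries) give context. Chat-Cre marks every cholinergic neuron, not motor neurons alone. The paper cites a report that it labels a sizeable number of GABAergic and glutamatergic neurons in adult cord as well. It did not find such cells significantly represented in its own adult tissue data.

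Spinal motor neurons release acetylcholine onto muscle. After they are born they extend axons under the direction of guidance receptors, then reduce that machinery and acquire the ion channels, neurofilaments and release proteins of a firing neuron. In the spinal cord this takes several weeks, and the culture step from DIV7 to DIV28 covers the later weeks of the process without muscle.

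The title and the sample list of the study disagree for a library. It is titled DIV0 replicate 3, whereas the study's sample list has it as the third replicate of untreated DIV28, and it was used here as DIV28 replicate 3. Across genes, its depth-scaled log2 counts correlated with DIV28 replicates 1 and 2 at r = 0.909 each, and with the DIV0 replicates at r = 0.658 and 0.659, which describes the libraries and carries no test. Counts are given below also without it, and with it placed in DIV0 as titled.

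Total counts were 2704682 and 3929008 at DIV7, and 4892825, 21823500 and 8434724 at DIV28, so the DIV7 libraries were the shallowest. The nuclear-retained RNA Malat1 took 13.2% to 20.2% of the counts at DIV28, and the ribosomal RNA-like transcript Gm26917 took 8.11% and 5.44% at DIV7. The labelled identity was checked by its markers. Chat, the enzyme that makes acetylcholine, stood at 380.6 and 389.5 normalised counts at DIV7 and at 518.0, 356.5 and 335.6 at DIV28, and Isl1, a homeodomain factor of motor neurons, at 503.8 and 517.8 and then 142.2, 255.7 and 229.9. Markers of the co-cultured cells were present too. The summed level of 20 astrocyte markers was 2488 and 4482 at DIV7 against 1944 to 2197 at DIV28, with Gjb6 and S100b at 0 in both DIV7 libraries and Gjb6 at 0 in every DIV28 library. The sum of 14 fibroblast and meningeal markers was 5921 and 1672 against 168.1 to 987.4, with none at 0 in either group. The sum of 15 microglia markers was 71.7 and 47.6 against 109.8 to 154.9, of which 8 were at 0 at DIV7, among them Cx3cr1 and Trem2, and 3 at DIV28. The sum of 10 endothelial markers was 143.4 and 94.0 against 325.3 to 764.0, with Cldn5 and Emcn at 0 in both groups. Most of that rise was Ly6c1, 1 of the 10, and without it the sum was 121.4 and 81.8 against 159.1, 230.5 and 113.2, so that the groups overlapped. Of the 10, 3 lay above their DIV7 range in every DIV28 library and 4 below it, and such separation was found above for 24.3% and below for 26.7% of all genes tested. In bulk nuclei, fewer cells of a type and less RNA per cell cannot be told apart.

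From DIV7 to DIV28, RNA of Vip, Gal and Spp1 rose and RNA of Plxnb1, Epha4 and Nes fell. Of 12890 genes tested, 466 were higher at DIV28 (3.62%) and 527 were lower (4.09%), together 7.7%, by edgeR's quasi-likelihood test with p under 0.001 and a change of 2-fold or more. With a Benjamini-Hochberg adjusted p under 0.05 in its place, 1031 were higher (8.0%) and 1000 lower (7.76%). Leaving out the library titled DIV0 gave 423 higher and 416 lower genes, whereas keeping it as DIV0 gave 61 and 57. Without DIV7 replicate 2 there were 170 and 233 calls, and without DIV7 replicate 1 there were 202 and 286, each with a lone DIV7 library. Of the 121 called genes chosen for naming, 49 kept the call without any 1 of the 5 libraries, among them Vip, Gal, Rxfp1, Spp1, Phkg1, Plxnb1, Nes, Epha4, Dcx, Kcnq3 and Grik1. Another 38 lost it only without a DIV7 library, among them Kcna2, Scn1a, Snap25, Gad1, Foxp1, Sprr1a, Xdh and Ly6c1. The other 34 lost it without a DIV28 library, among them Nefh, Isl1, Nfix, Pcsk1, Rgs4, Cacna2d1, Cacna1h, Gabrb2, Chrm3, Atf4, Lrrtm2, Cadm1, Shank3 and Syn3.

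Among the largest increases were 2 neuropeptides and a peptide receptor. Vip, the precursor of vasoactive intestinal peptide, was at 18.4 and 13.4 normalised counts at DIV7 and at 1194, 1321 and 725.4 at DIV28, a log2 fold change of 6.14 ± 0.57 (SE, adjusted p = 0.00026). Gal, the precursor of galanin, had no count in either DIV7 library and 413.0, 299.0 and 77.5 normalised counts at DIV28, which was at least 118-fold higher against a floor of 3 counts over the DIV7 group. Rxfp1, the relaxin receptor, had 2 counts in all at DIV7, and 230.2, 227.4 and 164.0 normalised counts at DIV28 (ratio 144, exact 95% interval 39.8 to 1190, counting error only). Every DIV28 library was above every DIV7 library for all 3 genes, which the rule that chose them requires. Such separation was found for 24.3% of all genes tested.

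Spp1, which encodes the secreted phosphoprotein osteopontin and is known as a marker of fast motor neurons, lies at chr5:104435118-104441050 (mm10). It went from 172.9 and 144.1 normalised counts to 5490, 6775 and 3626, a log2 fold change of 5.10 ± 0.47 (adjusted p = 0.00018). Sparcl1, a matricellular protein of synapses that astrocytes also make, went from 57.0 and 112.3 to 2207, 3984 and 1455 (log2 fold change 4.92 ± 0.64). The enzymes Phkg1, the catalytic subunit of phosphorylase kinase, and Xdh, xanthine dehydrogenase, were higher by 7.31 ± 0.97 and 4.77 ± 0.88 on the log2 scale. Phkg1 stood at 7.36 and 4.88 at DIV7 and at 1005, 1530 and 274.5 at DIV28, so that replicate 3 was the lowest of the DIV28 libraries, as it was for Gal, Vip, Spp1 and Sparcl1.

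Among the other genes with the largest increases were 3 that have near-identical paralogs, between which the counting could split reads. Lilr4b, an inhibitory leukocyte receptor, went from 51.5 and 21.98 to 1073, 670.8 and 609.4. Ly6c1, a surface protein of endothelial and myeloid cells, went from 22.1 and 12.2 to 604.9, 268.5 and 212.1, while the sum of the other 9 endothelial markers overlapped between the groups (above). Serpinb1a, an inhibitor of neutrophil proteases, went from 16.6 and 19.5 to 1133, 1855 and 485.9. Snord99 and Snord14c, small nucleolar RNAs encoded inside introns of host genes, rose by 5.41 ± 0.91 and 5.04 ± 1.10 on the log2 scale, and their reads cannot be told apart from those of host introns.

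**Figure D1:**
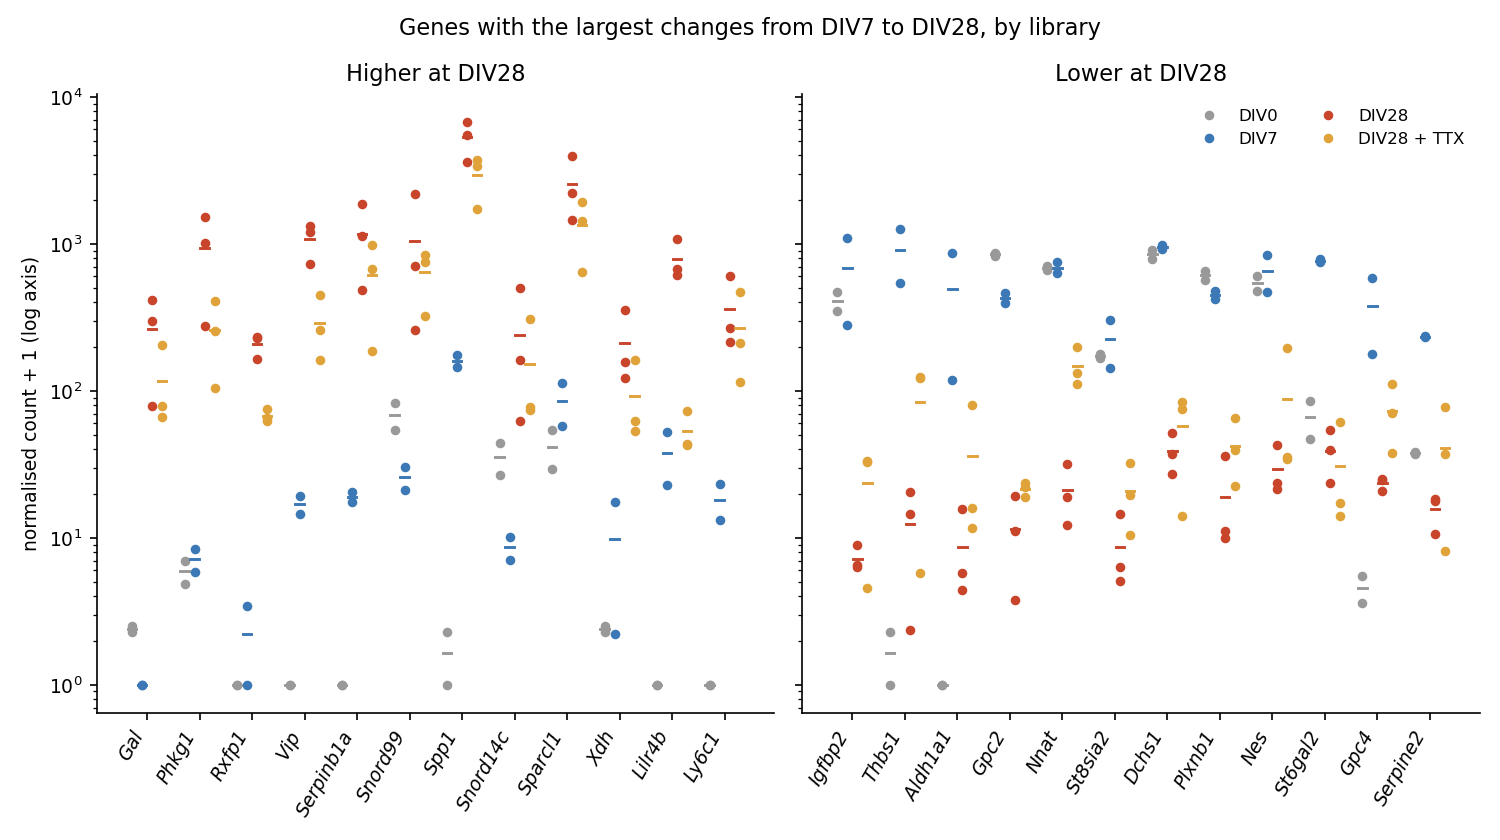
Normalised counts plus 1 (log axis) of the 12 genes with the largest increases and the 12 with the largest decreases from DIV7 to DIV28, by the naming rule. Each point is a library of DIV0, DIV7, DIV28 or DIV28 with TTX, and each short bar is the group mean. The naming rule takes only genes whose DIV28 points lie outside the DIV7 points, so this separation was fixed by the choice of genes.

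Open chromatin was profiled by ATAC-seq in 2 libraries a day, from nuclei sorted out of cultures of the same ages that are not stated to be the RNA cultures. There 21103 peaks were among the 100000 strongest in both DIV28 libraries with no overlap with any peak in either DIV7 library. Such gained peaks lay within 50 kb of the start sites of 9 of the 12 genes with the largest increases, where 67.1% of the uncalled and 61.1% of the lower genes also had one, and near none of Gal, Vip and Rxfp1. The sequences are shown for the 4 genes with the highest gained peaks, to let a reader look at the letters at these sites. They are taken from GRCm38.p6 (mm10, plus strand) around the summit of the highest gained peak outside annotated exons. Capitals mark the letters TGANTCA, with N any base, searched on both strands. The pattern covers TGAGTCA and TGACTCA, the AP-1 site of the activity-regulated Fos and Jun factors, and also the looser matches TGAATCA and TGATTCA.
Ly6c1 (chr15:75073827-75074026, 25.1 kb from the start site): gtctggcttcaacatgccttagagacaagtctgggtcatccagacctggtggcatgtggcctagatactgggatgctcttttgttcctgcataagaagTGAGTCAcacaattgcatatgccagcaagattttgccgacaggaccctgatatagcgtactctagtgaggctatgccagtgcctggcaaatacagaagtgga
Lilr4b (chr10:51480511-51480611, just upstream of the start site): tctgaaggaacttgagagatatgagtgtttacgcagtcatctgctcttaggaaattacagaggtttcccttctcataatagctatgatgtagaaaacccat
Xdh (chr17:73941883-73942082, inside the gene): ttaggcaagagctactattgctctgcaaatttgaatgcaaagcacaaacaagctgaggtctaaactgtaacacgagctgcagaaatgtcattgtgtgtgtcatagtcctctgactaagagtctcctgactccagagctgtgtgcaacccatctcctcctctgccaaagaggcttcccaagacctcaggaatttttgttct
Spp1 (chr5:104391196-104391395, 43.8 kb from the start site): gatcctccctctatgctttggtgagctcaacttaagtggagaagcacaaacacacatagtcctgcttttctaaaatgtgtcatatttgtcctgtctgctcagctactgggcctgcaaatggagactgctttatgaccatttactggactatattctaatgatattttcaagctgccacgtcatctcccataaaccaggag
The sequence near Ly6c1 held 1 AP-1 site, and those near the other genes held none. A match to TGANTCA, looser ones included, lay within the 200 bases around the summit of 58.6% of all 21103 gained peaks. The shares were 24.9% and 29.7% of the strongest peaks of the DIV7 libraries and 46.9% and 42.6% of those of the DIV28 libraries. The CRE letters TGACGTCA were in 0.488% of gained peaks and in 0.805% to 0.993% of the strongest peaks. These shares describe letters in a window and carry no test.

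Among the largest decreases were genes of axon growth, adhesion and progenitor cells. Plxnb1, a semaphorin receptor, fell from 419.3 and 475.0 to 10.2, 9.02 and 35.0 (log2 fold change -4.60 ± 0.55, adjusted p = 0.00055). Nnat, an imprinted proteolipid of immature neurons, fell from 627.0 and 747.3 to 18.1, 11.2 and 30.9 (-5.10 ± 0.40). St8sia2, the polysialyltransferase that decorates the neural cell adhesion molecule, fell from 141.6 and 304.1 to 13.54, 5.29 and 4.12. Dchs1, a large cadherin, fell from 926.8 and 981.8 to 50.8, 36.1 and 26.1, and Nes, the progenitor intermediate filament nestin, fell from 472.6 and 835.3 to 22.6, 41.7 and 20.6. The DIV28 libraries were below both DIV7 libraries for each of these, which the rule that chose them requires. Such separation was found for 26.7% of all genes tested.

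The other large decreases include genes that glia or fibroblasts are also known to express. Igfbp2, a binding protein of insulin-like growth factors, went from 277.7 and 1098 to 7.90, 5.29 and 5.49, and Thbs1, a synaptogenic matrix protein, from 542.5 and 1260 to 13.54, 19.6 and 1.37. Aldh1a1, which makes retinoic acid, went from 117.7 and 868.2 to 3.38, 14.6 and 4.80, and the DIV7 libraries lay far apart. Gpc4 fell from 176.5 and 581.3 to 23.7, 24.0 and 19.9, and its relative Gpc2, a glypican of growing axons, from 459.7 and 396.9 to 10.2, 18.4 and 2.75. St6gal2, a sialyltransferase, and Serpine2, a protease inhibitor, fell by 4.27 and by 3.94 on the log2 scale. Astrocyte and fibroblast marker sums were higher at DIV7 than at DIV28 (above), and their part in these decreases was not tested.

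Axon guidance receptors and their ligands steer growing axons. Of 42 guidance receptors and ligands tested, 11 were lower and 1 higher, with a median log2 fold change of -0.85 against 0.02 over all genes tested. Beside the counts of this and each following group stand the 4.09% of all genes tested that were lower and the 3.62% that were higher. Epha4, a receptor for ephrins, fell from 176.5 and 207.6 to 14.7, 6.22 and 12.3 (-4.17 ± 0.38), and Dcc, the netrin receptor, fell by 2.401 on the log2 scale. Ephb1 and Robo2 fell by 1.67 and 1.96. Sema5a was the member that rose, from 75.4 and 106.2 to 466.1, 508.4 and 431.7. Without the library titled DIV0 these counts were again 11 and 1. In the groups described next, leaving it out gave 4 lower axon growth genes in place of 6, 8 lower protocadherins in place of 12, 2 lower identity factors in place of 3 and 4 lower calcium channel genes in place of 6, and 6 lower astrocyte markers in place of 2. Potassium channel genes became 5 higher and 4 lower in place of 6 and 5. There were 2 lower trophic factor receptors in place of 3, and 3 higher late activity-regulated genes in place of 4. Higher genes numbered 2 in place of 1 among presynaptic and among glycolysis genes, and 1 in place of 2 among postsynaptic genes. Among ribosomal proteins, 1 was higher in place of none.

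Of 27 axon growth and immature neuron genes, 6 were lower and none higher (median -0.61), among them the microtubule protein Dcx (-2.26 ± 0.37) and the collapsin response mediators Dpysl4 (-2.04 ± 0.24) and Dpysl5 (-1.68 ± 0.31). Of 56 clustered protocadherins, which give neurons their surface identity, 12 were lower and none higher (median -0.90). Pcdhgc3 stood at 459.7 and 797.4 and then at 72.2, 73.1 and 75.5. These genes share exons within a cluster, so that the division of reads among them is uncertain. Of 12 progenitor and proneural factors 3 were lower, Nes, Notch1 and Vim. All 3 are also made by cultured astrocytes, and Vim by fibroblasts. The astrocyte sum was 2488 and 4482 at DIV7 against 1944 to 2197 at DIV28, the fibroblast sum 5921 and 1672 against 168.1 to 987.4, and their part in these decreases was not tested.

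None of the 6 genes tested from the cholinergic list, which also holds the catalase gene Cat, passed the test, beside 7.7% of all genes tested. With so few genes, that count cannot show whether the group was unchanged. The choline transporter Slc5a7 stood at 432.1 and 294.3 and then at 695.1, 654.9 and 648.5 (0.92 ± 0.26, adjusted p = 0.033). Of 19 identity factors 3 fell: Isl1 (-1.24 ± 0.27), Foxp1 (-1.32 ± 0.23) and Nfix (-2.43 ± 0.50). The calls of Isl1 and Nfix were each kept in only 1 of the 5 fits that left out a library, Isl1 without DIV28 replicate 2 and Nfix without DIV7 replicate 1. Mnx1 stood at 9.19 and 29.3 at DIV7 and at 22.6, 40.8 and 16.5 at DIV28, so the groups overlapped.

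**Figure D2:**
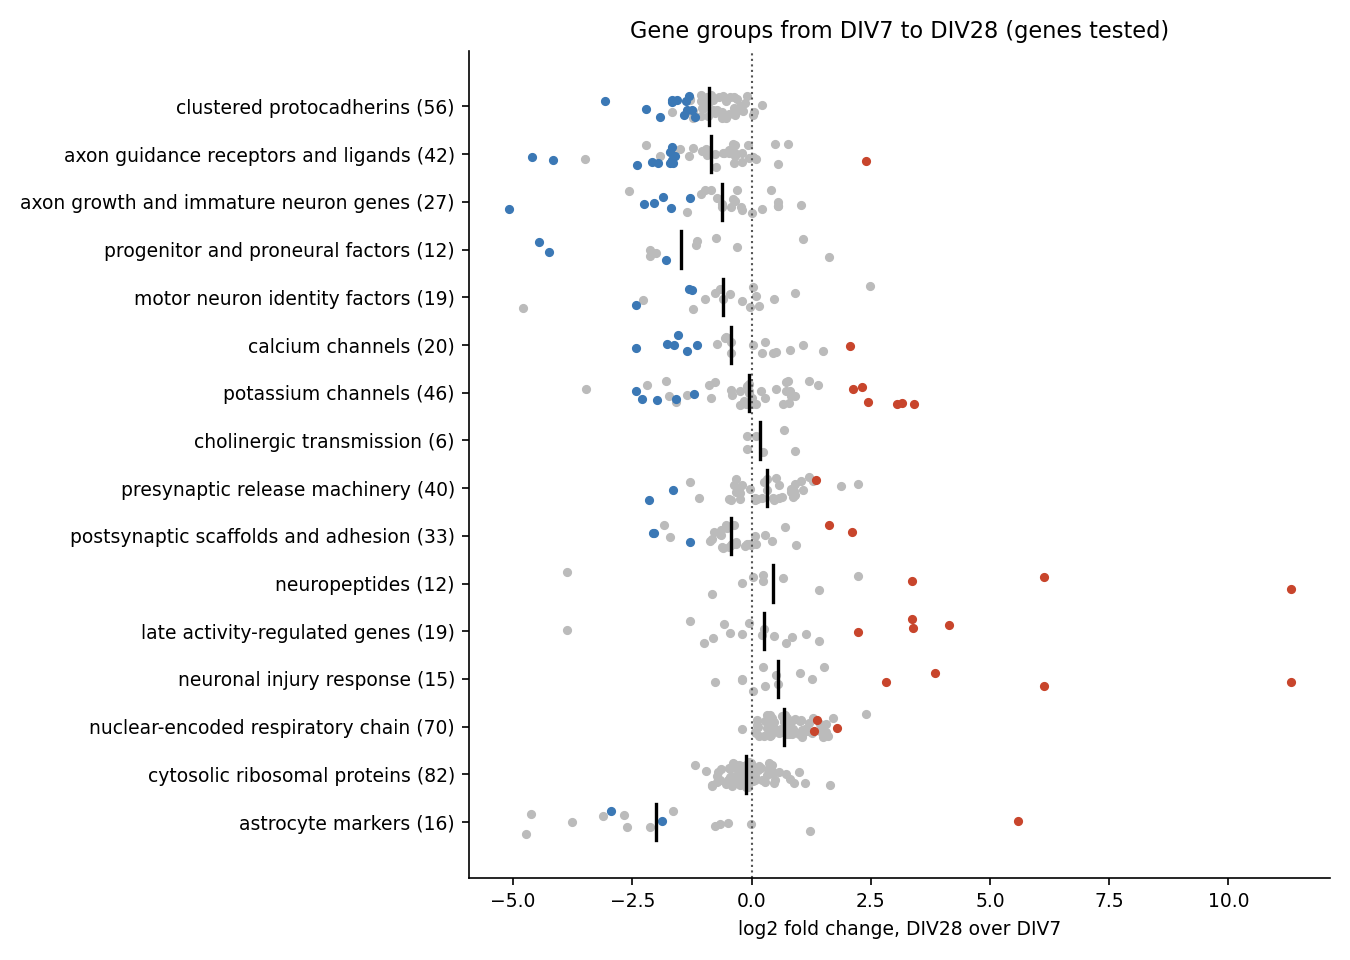
Log2 fold change from DIV7 to DIV28 (horizontal axis) of every tested member of 16 gene groups, with the number tested in brackets. Red points were called higher, blue points called lower, grey points not called; black bars are group medians, and the dotted line is the median of all genes tested. Guidance genes and protocadherins lie mostly left of the line, respiratory chain genes mostly right of it. The point of Gal at the far right comes from a group with no counts and depends on the prior count of the fit.

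Ion channel genes moved in both directions. Of 46 potassium channel genes, 6 rose and 5 fell, with a median of -0.05. Kcna2, a channel of the axon near the node, rose from 125.0 and 202.7 to 478.5, 772.5 and 848.2 (2.12 ± 0.33), and its partner subunit Kcnab2 rose by 3.399 ± 0.46 and the sodium-activated Kcnt1 by 2.31 ± 0.38. Kcnq3, the M-current channel of the initial segment, fell from 2839 and 2787 to 821.5, 877.0 and 1025. Of the G-protein-gated inward rectifiers, Kcnj3 rose (3.04 ± 0.53) while Kcnj6 fell from 446.8 and 497.0 to 118.5, 83.1 and 146.9. Scn1a, a sodium channel of mature neurons, rose from 318.1 and 163.6 to 888.1, 1307 and 1474, and Scn3b, a sodium channel beta subunit, fell from 428.5 and 472.6 to 107.2, 65.3 and 109.1. Of 20 calcium channel genes 6 fell, among them the T-type channels Cacna1g (-1.15 ± 0.20) and Cacna1h (-1.77 ± 0.33), and Cacna2d1, an auxiliary subunit, rose (2.06 ± 0.40).

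Of 15 GABA and glycine receptor genes 2 rose and 1 fell. Glra1, the adult glycine receptor subunit, rose from 5.52 and 7.33 to 91.4, 72.2 and 45.3 (3.42 ± 0.52), with its partner Glrb (1.78 ± 0.29), and Gabrb2 fell (-2.42 ± 0.54). Of 11 AMPA, kainate and delta receptor genes, Grik1 fell from 3312 and 3549 to 567.6, 402.0 and 988.2, and Gria3 from 297.9 and 266.2 to 94.8, 83.1 and 87.8. Of 6 nicotinic and muscarinic receptor genes Chrna4 and Chrm3 fell. Of 15 trophic factor receptors, Gfra2 (-3.17 ± 0.49), Igf1r (-1.99 ± 0.28) and Kit (-1.56 ± 0.33) fell, the call of Kit being lost whenever any of the 5 libraries was left out.

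Of 40 presynaptic genes 3 were called and of 33 postsynaptic genes 5, beside 7.7% of all genes tested. Of the presynaptic genes, Snap25, a core fusion protein, rose from 1033 and 901.2 to 2122, 2456 and 2637, and Unc13b and Syn3, a priming factor and a vesicle protein, fell by 2.14 and 1.65 on the log2 scale. Of the postsynaptic genes Camk2a and Lrrtm2 rose and Cadm1, Shank1 and Shank3 fell. Nefh, the heavy neurofilament of large axons, rose from 535.1 and 990.3 to 3201, 10200 and 3655 (2.93 ± 0.62).

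The peptide, activity and injury lists share members. Of 12 neuropeptide genes Vip, Gal and Crh rose, and Crh, corticotropin-releasing hormone, went from 7.36 and 3.66 to 62.1, 55.1 and 45.3. Of 19 late activity-regulated genes 4 rose: Crh, Nptx1, an AMPA receptor-clustering pentraxin (3.39 ± 0.43), Rgs4 (2.22 ± 0.47) and the prohormone convertase Pcsk1, whose call was kept in 2 of the 5 fits that left out a library. Of 15 immediate early genes Klf10 alone was called (1.95 ± 0.32). Npas4, a neuron-specific activity factor, stood at 23.9 and 20.8 and then at 45.1, 37.96 and 92.0 (adjusted p = 0.082), and Fos, at 22.1 and 92.8 and then 21.4, 27.4 and 30.2, was below the filter on low counts. Of 15 injury-response genes Vip, Gal, Gadd45a and Sprr1a rose, and Sprr1a, a regeneration-associated protein, went from 42.3 and 65.9 to 1325, 571.2 and 419.3. Of 17 stress-response genes Chac1 (3.53 ± 0.65) and Atf4 (1.16 ± 0.26) rose.

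Genes of other transmitters rose as well. Gad1, which makes GABA, rose from 103.0 and 47.6 to 449.1, 385.5 and 269.7. Slc17a6, the vesicular glutamate transporter, had 1 count in all at DIV7 and 57.5, 84.6 and 45.3 normalised counts at DIV28 (ratio 95.4, exact 95% interval 17.0 to 3780), and Slc6a4, the serotonin transporter, had 1 count and then 136.5, 142.2 and 51.5 (ratio 160, interval 28.6 to 6330). Whether these transcripts come from the same nuclei as Chat was not tested.

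Of 70 nuclear-encoded respiratory chain genes 3 were called higher, Cox6c, Atp5pb and Atp5h (4.29%, against 3.62% of all genes tested). The median was 0.69, and 69 of the 70 had a log2 fold change above 0, as had 6591 of all 12890 genes tested. None of 82 cytosolic ribosomal proteins (median -0.12), 36 proteasome subunits (0.32) or 8 CCT chaperonin genes (-0.18) passed the test, beside 7.7% of all genes tested. Of 19 glycolysis genes, 17 had a log2 fold change above 0, and the median was 0.90. The glucose transporter Slc2a1 alone was called higher. Pfkp, a platelet-type phosphofructokinase, alone was called lower and fell from 16720 and 16670 to 3679, 3127 and 4328.

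Values under TTX and at DIV0 are set beside these. The TTX comparison shares the DIV28 libraries and the earlier step from DIV0 to DIV7 shares the DIV7 libraries, so that neither is independent of the changes above. In TTX against DIV28, 36 genes were higher (0.279%) and 52 lower (0.403%). Vip averaged 1080 ± 314 (SD, n = 3) at DIV28 and 289.0 with TTX (log2 fold change -1.92, called), Rxfp1 207.2 and 66.5 (-1.65, called), and Lilr4b 784.5 and 52.1 (-3.94, called). Glra1 was lower with TTX by 2.33 on the log2 scale and was called as well. Spp1 averaged 2921 with TTX (-0.88, not called), and Nefh 3199 (-0.85, not called). Of the genes that fell, Nnat averaged 146.6 and Epha4 73.4 with TTX, higher than at DIV28 by 2.88 and 2.79 on the log2 scale, both called. Not every called gene ran opposite to the late step. Chrna4, which fell by 2.935 on the log2 scale after DIV7, averaged 16.4 at DIV28 and 4.93 with TTX (-1.88, called). From DIV0 to DIV7, 1078 genes had risen (8.36%) and 362 had fallen (2.81%). The neurons were plated on glia at DIV0, so the cell mixture changed over this step as well. Its median log2 fold change was 4.49 for 16 astrocyte markers and 5.28 for 7 fibroblast and meningeal markers. The part of such cells in these counts was not tested. Spp1 was at or near 0 at DIV0, Chat fell by 2.25 on the log2 scale over that earlier step, and Grik1, which fell after DIV7, had risen by 5.23 before it.

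To ask whether the same genes move in the spinal cord, the change from DIV7 to DIV28 was compared with that from P4 to P21 in motor neuron nuclei, fitted together in 25 libraries over 15521 genes. Between P4 and P21, 791 genes were higher (5.1%) and 1555 lower (10%). The paper states that a smaller share of captured nuclei carried the tag at P4 than at P21, with some blood vessel contamination at P4. The part of this difference in purity in the tissue changes was not tested. Of the 466 genes called higher at DIV28 in the culture fit, 464 were measured in the joint fit, and 81 of these were higher at P21 (17.5%, against the 5.1% of all genes). Of the 527 called lower, all measured there, 158 were lower at P21 (30.0%, against 10%). The shares of all genes are over the 15521 genes of the joint fit, whereas the culture calls come from 12890 genes. The sets of genes are therefore unlike. The joint fit's own test of DIV28 against DIV7 called 7.72% of genes higher and 7.82% lower, and those calls were not used for these counts. Each overlap was 10.2% of the tissue calls in that direction. In the opposite direction, 24 of the 464 were lower at P21 (5.17%, against 10%). Of the 527, 7 were higher at P21 (1.33%, against 5.1%). Over 15521 genes the changes in culture and in tissue had Pearson's r of 0.224 and Spearman's rho of 0.221, across genes that are not independent replicates and with no test. Spp1 rose in both, from 10.04, 17.3 and 19.8 at P4 to 77.97, 127.5 and 115.8 at P21. Kcna2 rose in both, from 493.1, 545.8 and 754.4 to 1760, 2245 and 2036. Nes fell in both, from 1079, 975.6 and 945.2 to 5.57, 21.02 and 30.3.

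The difference between the steps was tested as an interaction, in which 1194 genes moved more towards higher values in culture than in tissue (7.69%) and 868 less (5.59%). Sparcl1 rose in culture and fell in tissue, from 4669, 3914 and 3962 at P4 to 1460, 1561 and 1425 at P21. Vip rose in culture by 6.16 on the log2 scale in this fit, and stood at 4.46, 0 and 2.48 at P4 and at 1.39, 0 and 1.38 at P21. Gal stayed at 2.48 to 4.46 at P4 and at 2.80 to 5.51 at P21. Phkg1 differed by 8.19 ± 0.89, and its tissue libraries lay between 13.8 and 37.9. Among the lists, 44 of 84 ribosomal protein genes were called for a positive interaction, beside 7.69% of all genes. Their median interaction was 1.49, with a median of -0.12 in culture and -1.60 in tissue, where 65 were called lower. Of 77 respiratory chain genes 23 were called for a positive interaction. Their median interaction was 1.07, with medians of 0.64 in culture and -0.41 in tissue. All 10 endothelial markers were lower at P21 than at P4, with Vwf at 866.8, 944.2 and 776.7 at P4. The paper reports some blood vessel contamination of the P4 nuclei (above), and the part of endothelial nuclei in the P4 libraries was not tested.

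**Figure D3:**
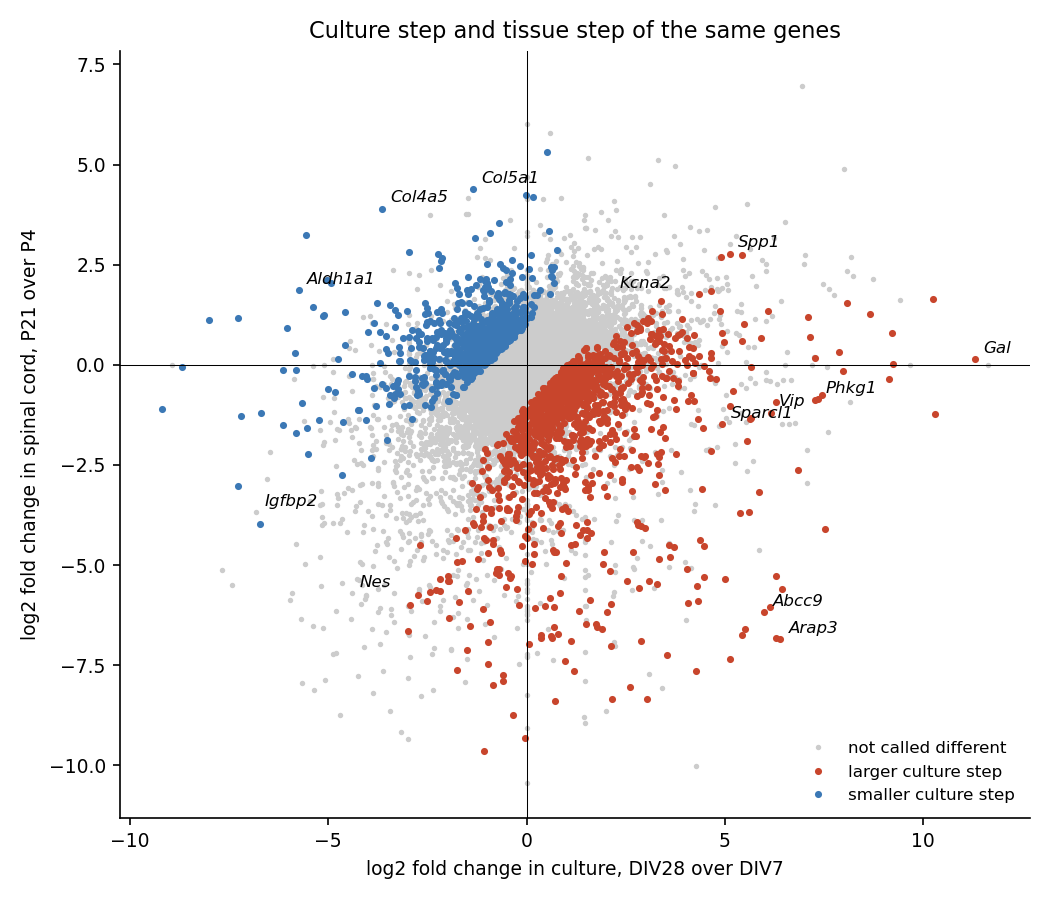
Log2 fold change in culture (DIV28 over DIV7, horizontal axis) against that in spinal cord motor neuron nuclei (P21 over P4, vertical axis) for 15521 genes, each a point. Red and blue points are the 1194 and 868 genes whose culture change was above or below the tissue change by the interaction test, grey points the rest. Spp1 and Kcna2 lie in the upper right, Nes in the lower left, Arap3 and Abcc9 in the lower right, and Col4a5 in the upper left.

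Open chromatin near the changed genes was counted as peaks within 50 kb of the start site, from at most 100000 peaks in each ATAC-seq library. Near the 465 placed genes higher at DIV28 there were 5.80 and 5.70 peaks a gene at DIV7 and 6.79 and 6.60 at DIV28, a ratio of 1.17 that ranged from 1.14 to 1.19 over the pairs of libraries. Near the 527 lower genes there were 6.16 and 6.04 and then 6.01 and 5.93 (ratio 0.978), and near the 11881 genes not called 5.65 and 5.51 and then 6.43 and 6.32 (ratio 1.14, range 1.12 to 1.17). The ranges of the higher and the uncalled genes overlapped, and that of the lower genes, 0.962 to 0.995, lay below both. With 50000 peaks a library the higher genes (1.089 to 1.128) lay above the uncalled genes (1.046 to 1.08), whereas with a 10 kb window the ranges, 1.081 to 1.145 and 1.045 to 1.098, overlapped. Gained peaks were found near 76.1% of the higher, 61.1% of the lower and 67.1% of the uncalled genes, and peaks lost by DIV28, of which there were 5511, near 15.3%, 24.9% and 14.6%. With 2 libraries a day an exact permutation test cannot go below p = 0.333, so none is given. The DIV7 libraries held 95519 and 122751 peaks and the DIV28 libraries 224328 and 152667, so DIV7 replicate 1 fell short of 100000, and the part of this depth gap in the peak counts was not tested.

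**Figure D4:**
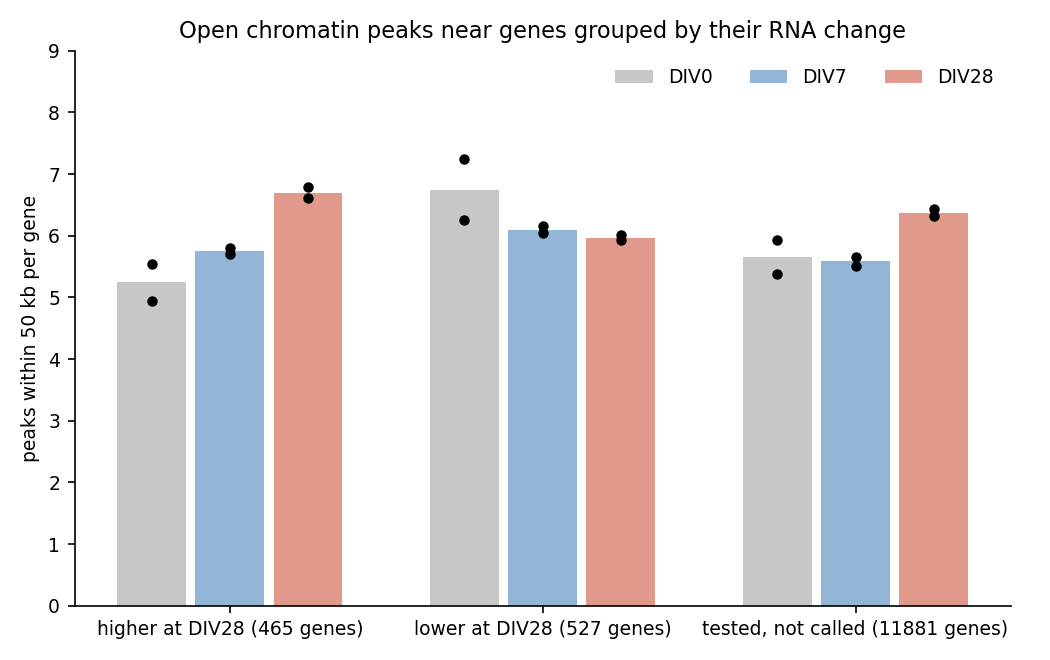
ATAC-seq peaks within 50 kb of the start site per gene (vertical axis) for genes higher at DIV28, lower at DIV28 and not called, at DIV0, DIV7 and DIV28. Bars are means of 2 libraries and points are the libraries. The bar rises from DIV7 to DIV28 for the higher and the uncalled genes and not for the lower genes.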

How the data were processed

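Nuclear RNA was sequenced after ribosomal depletion. The authors trimmed reads with Trim Galore, aligned them to mm10 with STAR 2.5.2b and quantified genes with RSEM 1.3.0, and the deposited values used here are RSEM expected counts for 55385 genes, rounded here to whole numbers, and TPM (deposited by the authors, not tested). The kit keeps strand, and the default RSEM settings named by the authors do not use it. For ATAC-seq the authors aligned with BWA and called peaks per library with MACS2 2.2.7.1, and the deposited peak files give fold enrichment as a ratio and −log10 p.

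Genes with at least 5 CPM in every library of a group were kept, scaled by TMM and fitted with edgeR 4.0.16 (glmQLFit, glmQLFTest) over the 10 culture libraries, so that groups share the estimate of the spread. A call needs p under 0.001 and a 2-fold change, and adjusted p-values are Benjamini-Hochberg over all genes tested. SE is the log2 fold change divided by the square root of F. Normalised counts are expected counts over median-of-ratios size factors. The interaction was fitted over 25 libraries, and tissue values are scaled over those. Peaks were ranked by −log10 p, with 1 summit per interval and an overlap of at least 1 bp. Scripts were tested on simulated data. Replicate pairs correlated at r = 0.909 to 0.928 within DIV7 and DIV28, and no 2 libraries agreed within sampling noise.

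Named genes are the 12 largest called changes each way that stay called without the library titled DIV0, have a mean of at least 200 normalised counts in the higher group and do not overlap between groups (predicted, Rik and pseudogene names left out), up to 6 called members of each of 48 lists, 14 defining genes, and the 5 largest called interactions each way among genes with a mean of at least 200 in DIV7, DIV28, P4 or P21 (same name rule). Markers named as absent, and Sparcl1, Vip, Phkg1, Spp1, Kcna2 and Nes in the tissue comparison, were picked after their values were seen. The members, lists and tests were chosen with earlier results of these data known. Alternatives were median-of-ratios scaling, DESeq2 1.42.0, a likelihood ratio test, no filter, an adjusted p, other sets of libraries, a replicate block, and other windows and peak numbers. Intervals and floors cover counting error only.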

Additional observations from a re-analysis of the deposited data

Results flagged for a closer look

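The change from DIV7 to DIV28 differed from the change from P4 to P21 for 1194 genes in the direction of a higher culture change and for 868 in that of a lower one, by the interaction test in edgeR. Among genes with a mean of at least 200 normalised counts in DIV7, DIV28, P4 or P21, the 5 with the largest positive difference include 4 with no count at DIV7 and at most 15.3 normalised counts at DIV28, so that their fitted values depend on the prior count: Arap3 (13.24 on the log2 scale), Abcc9 (12.17), Vwf (12.08) and Cd34 (10.01). Each fell in tissue, Vwf from 866.8, 944.2 and 776.7 at P4 to 12.5, 11.2 and 2.76 at P21, and Arap3 from 363.7, 249.1 and 232.9 to 1.39, 2.80 and 2.76. Vwf and Cd34 are genes of endothelial cells, whose 10 listed markers all fell from P4 to P21. The paper reports some blood vessel contamination of the P4 nuclei, and the part of such nuclei was not tested.

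Gal, the other of the 5, had an interaction of 11.16, with no count at DIV7, 426.6, 313.7 and 82.8 at DIV28 in this scaling, and 2.48 to 5.51 in the P4 and P21 libraries. In the other direction, with the same limit on level, stood Aldh1a1 (-7.60 on the log2 scale), Col4a5 (-7.55), Col5a1 (-5.74), Trf (-5.30) and Fndc1 (-4.80). Col4a5, a basement membrane collagen chain, fell in culture from 190.0 and 182.1 to 18.7, 18.9 and 4.399 and rose in tissue from 22.3, 21.7 and 16.1 to 309.1, 311.1 and 278.4. Col5a1, a fibrillar collagen chain, was not called in culture and rose in tissue from 79.2, 76.9 and 50.8 to 2325, 1134 and 861.4. Aldh1a1 was 120.4 and 911.8 at DIV7, and 36.2 to 62.0 at P21. Trf, transferrin, and Fndc1 had at most 33.3 normalised counts in any culture library of DIV7 or DIV28. No group compared had 4 or more libraries, so no single library could be tested for standing apart.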

How the results depend on the processing

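The counts of 466 higher and 527 lower genes became 835 and 792 with DESeq2, 812 and 841 with a likelihood ratio test, 1166 and 1066 without the filter on low counts, 1031 and 1000 with an adjusted p limit, and 61 and 57 with the library titled DIV0 replicate 3 kept as DIV0. With any 1 replicate removed, the higher genes numbered 170 to 423 and the lower genes 233 to 419, the lowest without DIV7 replicate 2, where the lone DIV7 library is assumed to vary like the other groups; without DIV7 replicate 1 there were 202 and 286, and without DIV28 replicate 2 there were 348 and 346. Only the 4 libraries whose titles give their group, a choice made after seeing the data, gave 477 and 489. The replicate block gave 733 higher and 786 lower genes, but replicate numbers are not shown to pair the samples (r = 0.045 over 12890 genes between the differences of replicates 1 and 2 at DIV7 and DIV28). The 1194 and 868 interaction calls became 1934 (higher) without the filter, 728 and 478 with P13 in place of P21, 728 and 447 with the titled library as DIV0, and 2188 and 1562 with an adjusted p limit, and leaving out a replicate gave 850 to 1374 and 629 to 981. Peaks per gene, DIV28 over DIV7, were 1.17 near higher, 0.978 near lower and 1.14 near uncalled genes, 1.11, 0.901 and 1.07 with a 10 kb window, and 1.11, 0.923 and 1.06 with 50000 peaks. The cause of these shifts was not tested. All 121 called named genes kept their direction under the 15 alternatives, and 8 kept the call under every one; 106 lost it with the titled library as DIV0, 56 without DIV7 replicate 2 and 45 without DIV7 replicate 1. Of the uncalled, Chat ranged from -0.12 (without DIV28 replicate 1) to 0.20, and Mnx1 from -0.075 (without DIV7 replicate 1) to 1.62, with a change of sign also without DIV28 replicate 2 (-0.03). The share of higher calls was 46.9%, and 41.4% to 52.2% under the alternatives, and no filter moved the median of all genes to 0.104 on the log2 scale. Of 720 list medians under alternatives, 653 moved by less than the spread between replicates. Depth at DIV7 limits genes of low level.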
